A study of Mus musculus with 24 samples.

Results

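The regions described here are 11301 distal ATAC-seq peaks that the Daxx-WT CMP and GMP lists shared and the Daxx-WT LT-HSC list lacked. ATAC-seq marks accessible chromatin by the insertion of adapters by the Tn5 transposase. CMPs are common myeloid progenitors, GMPs are granulocyte-monocyte progenitors and LT-HSCs are long-term haematopoietic stem cells. A region was taken where a Daxx-WT CMP peak lay over 1000 bp from every annotated start site, overlapped a Daxx-WT GMP peak by at least 1 bp and overlapped no Daxx-WT LT-HSC peak. These 11301 peaks, called progenitor peaks below, were 24.6% of the 46017 distal peaks among the 66070 Daxx-WT CMP peaks, and the 11 peak lists of the study held 549003 peaks in all. Because the progenitor peaks were selected on the 3 Daxx-WT lists, their presence in CMPs and GMPs and absence from LT-HSCs is a definition. The class used most for comparison was the 23633 distal CMP peaks found in all 3 Daxx-WT lists, called shared peaks. Another 6581 distal CMP peaks were found in LT-HSCs but not GMPs, and 4502 were found in CMPs alone.

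All cells came from bone marrow of C57BL/6 mice, and all groups carried 1 copy of a Cre transgene (genotype Cre +/-). Daxx-WT mice were Daxx +/+ and Daxx-KO mice were Daxx F/F, a floxed allele from which Cre removes exons 2 to 7. For LT-HSCs at 3 d.p.i. the labels give every control as Daxx +/+, whereas a legend of the study also names Daxx +/F, so that a Daxx-WT library of that time may be heterozygous. The LT-HSC, CMP and GMP groups that carry no time label comprised 2 libraries of either genotype. Their mice carried the tamoxifen-inducible RosaCreER and were killed 3 weeks after tamoxifen. CMPs were sorted as lineage-negative c-Kit+ Sca-1- CD16/32- CD34+ cells, and LT-HSCs as lineage-negative c-Kit+ Sca-1+ CD48- CD150+ cells after c-Kit enrichment. A second set of LT-HSCs was taken at 3 d.p.i., that is, days after Cre was induced (3 libraries of Daxx-KO and 2 of Daxx-WT). KLS cells (c-Kit+ lineage-negative Sca-1+, the mixed stem and multipotent progenitor compartment) were taken at 3 w.p.i., counted in weeks, with 3 libraries of Daxx-KO, 2 of Daxx-WT and 2 of DKO. DKO cells were Daxx F/F and Pu.1 F/F, from a cross with Mx1Cre mice in the methods; no Cre driver is named in the labels, and the series has no group that lacks Pu.1 alone. RosaCreER acts in many cell types, so that the deletion was not limited to the sorted cells.

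Each group had 1 peak list, of 22156 peaks in DKO KLS cells to 70455 in Daxx-KO LT-HSCs. Presence in a list therefore has no spread between libraries and no test, and shares are set beside those of all 46017 distal Daxx-WT CMP peaks. The depth behind the 6 lists without a time label is not known, and CMP and GMP libraries, but not LT-HSC libraries, were sequenced in an additional run. Depth and cell type therefore cannot be told apart in the rule. The 3 tables of differential sites give reads per library, at 4.21 to 16.0 reads per window of 600 bp. The deletion was visible in them: the Daxx site over the first exons had 54.6 to 108.8 scaled reads in the Daxx-KO and DKO libraries and 200.6 to 365.7 in the Daxx-WT libraries. The site over the last exon of Spi1, which encodes Pu.1, had 2.12 and 4.68 scaled reads in DKO against 31.1 and 58.1 in Daxx-WT KLS libraries. Promoter peaks of defining genes told the sorted populations apart only in part. Of 8 CMP and GMP markers, 7 had one in the Daxx-WT CMP list and 8 in the Daxx-WT GMP list. In the Daxx-WT LT-HSC list 4 of 8 had one, and Elane, Ctsg, Ms4a3 and Cebpe had none. Of 7 LT-HSC markers, 6 had a promoter peak in both the Daxx-WT LT-HSC and the Daxx-WT CMP list. In the Daxx-WT GMP list 4 had one and in the Daxx-WT KLS list 3, and Ly6a, which encodes Sca-1, had none in any list. Of 5 erythroid genes, 4 had one in both the Daxx-WT CMP and GMP lists and 3 in that of Daxx-WT LT-HSCs. Of 5 B and T cell genes, 3 had one in both the Daxx-WT LT-HSC and CMP lists and 2 in that of Daxx-WT GMPs.

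Blood stem cells give rise to myeloid progenitors through the stepwise opening of distal elements, many of which are enhancers bound by lineage transcription factors. Pu.1, an ETS-family factor, and the C/EBP factors are the best-known openers of such elements on the way to granulocytes and monocytes, and Pu.1 binds composite sites together with IRF8 or IRF4. Daxx is a chaperone that, with ATRX, deposits the histone variant H3.3 at heterochromatin and repeats. The comparisons ask which of the elements that open between LT-HSCs and progenitors were found without Daxx, and whether stem cells without Daxx, or without Daxx and Pu.1, held them.

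The sequences of 7 progenitor peaks are shown as examples of elements with a Pu.1 or a C/EBP motif, which most progenitor peaks lacked (8067 of 11301 held neither). The nearest protein-coding start site of each belongs to a myeloid gene, at distances of 1336 to 326538 bp. Each is the central 200 bases of a Daxx-WT CMP peak on the plus strand of GRCm38 (mm10, RefSeq), and capitals mark matches on either strand to a Pu.1 motif (GAGGAAGT) or a C/EBP motif (TTGCNNAA). They are 7 of 24 peaks, the widest per gene, that hold either motif and lie nearest to a gene of the granule, fate factor or receptor lists described below, and the 7 were chosen after their presence in the lists was seen. The first 3 were in the DKO KLS list and hold a C/EBP match, although other C/EBP windows among the 24, such as those nearest to Irf5, Klf4, Maf and Flt3, were not in that list. The first lies in an intron of Srgn, which encodes the granule proteoglycan serglycin (chr10:62517441-62517640, 9089 bp from a start site). The next lies between genes, 326538 bp from Runx1, a factor of definitive haematopoiesis (chr16:93152985-93153184). The last lies between genes, 162892 bp from Jun, an AP-1 subunit (chr4:95215334-95215533).
Srgn: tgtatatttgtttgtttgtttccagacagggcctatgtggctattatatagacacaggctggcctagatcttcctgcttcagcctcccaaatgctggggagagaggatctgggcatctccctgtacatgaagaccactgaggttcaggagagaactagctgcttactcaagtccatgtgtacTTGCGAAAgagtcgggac
Runx1: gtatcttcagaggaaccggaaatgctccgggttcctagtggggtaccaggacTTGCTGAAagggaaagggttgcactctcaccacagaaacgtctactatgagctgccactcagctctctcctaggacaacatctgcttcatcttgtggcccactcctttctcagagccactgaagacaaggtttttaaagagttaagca
Jun: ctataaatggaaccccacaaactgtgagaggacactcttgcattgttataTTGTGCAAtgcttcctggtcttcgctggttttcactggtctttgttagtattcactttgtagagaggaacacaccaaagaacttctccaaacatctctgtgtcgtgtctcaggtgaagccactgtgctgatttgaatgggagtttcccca
The other 4 hold a Pu.1 match and were not in the DKO KLS list. One lies between genes, 45071 bp from Egr2, a zinc-finger factor of macrophage fate (chr10:67489924-67490123). Another lies 254845 bp from Id2, an inhibitor of E proteins (chr12:25352249-25352448), in an intron of a gene that is not protein-coding. The others lie in an intron of Cxcr2, the neutrophil chemokine receptor (chr1:74155544-74155743), and in an intron of Il6ra, the interleukin-6 receptor (chr3:89911289-89911488).
Egr2: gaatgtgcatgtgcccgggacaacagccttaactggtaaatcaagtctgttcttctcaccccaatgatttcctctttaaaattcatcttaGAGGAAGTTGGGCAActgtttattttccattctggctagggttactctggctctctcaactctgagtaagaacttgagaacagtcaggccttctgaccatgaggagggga
Id2: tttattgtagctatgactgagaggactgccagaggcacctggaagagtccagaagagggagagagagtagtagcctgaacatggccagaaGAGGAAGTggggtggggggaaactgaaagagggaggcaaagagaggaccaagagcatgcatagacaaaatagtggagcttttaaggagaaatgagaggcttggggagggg
Cxcr2: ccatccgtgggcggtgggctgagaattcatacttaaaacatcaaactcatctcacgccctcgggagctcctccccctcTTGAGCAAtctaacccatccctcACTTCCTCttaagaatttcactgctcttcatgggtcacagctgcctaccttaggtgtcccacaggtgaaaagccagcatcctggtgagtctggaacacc
Il6ra: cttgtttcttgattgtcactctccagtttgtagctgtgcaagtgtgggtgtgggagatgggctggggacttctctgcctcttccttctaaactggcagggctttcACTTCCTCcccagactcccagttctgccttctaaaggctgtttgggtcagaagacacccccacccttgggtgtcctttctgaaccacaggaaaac
In the Egr2 window the Pu.1 and C/EBP matches overlap by 1 base, and in the Cxcr2 window they stand apart. The 7 differed widely in the lists that held them. The Egr2 peak was in none of the 8 lists outside the rule, and the Runx1 peak was in every one of the 8 but that of Daxx-KO LT-HSCs at 3 d.p.i. The Il6ra peak was in 6 of the 8, missing from the Daxx-KO and DKO KLS lists.

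Progenitor peaks were narrower than shared peaks and lay somewhat farther from genes. Their median width was 529 bp (quartiles 405 and 680), against 647 bp for shared peaks, 513 bp for CMP and LT-HSC peaks and 439 bp for CMP-alone peaks. Of the progenitor peaks, 52.3% lay in introns, 4.67% overlapped an exon and 43.0% lay between genes, and the median distance to a protein-coding start site was 17807 bp (14844 bp for shared peaks). Median GC content was 47.3% against 49.0% in shared peaks. Repeats covered 18.9% of the bases of a progenitor peak on average and 15.0% of those of a shared peak, and 7.47% against 2.95% of the peaks were mostly repeat. They were spread over the genome: progenitor peaks made up between 21.6% (chromosome 11) and 27.9% (chromosome 1) of the distal CMP peaks of every autosome and of X, and chromosome Y held 1.

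Motif matches in the central 200 bases set progenitor peaks apart from shared peaks for a few factors. A C/EBP match (TTGCNNAA) was found in 17.3% of progenitor peaks, 11.1% of all distal CMP peaks and 9.65% of shared peaks. A Pu.1 match (GAGGAAGT) was found in 12.9%, 8.90% and 7.66%, and a match to the composite of Pu.1 with an IRF factor (GGAANNGAA) in 15.7%, 10.3% and 7.84%. The CTCF motif (AGNGGGCG), bound by the insulator protein CTCF, went the other way, with 2.16%, 4.87% and 6.51%. Peaks found in CMPs alone were in part alike, with the Pu.1 motif in 10.55%, the composite in 13.8% and the CTCF motif in 2.98%, but had the C/EBP motif in 8.0%. Matches for the AP-1 motif (TGANTCA, 10.3%), that of MYB (CNGTTA, 20.97%), that of GATA factors (AGATAA, 8.70%), that of RUNX factors (TGTGGTTT, 4.37%) and that of other ETS factors (CCGGAAGT, 0.531%) lay close to their shares in all distal CMP peaks (8.71%, 20.2%, 10.1%, 4.45% and 0.506%). Both strands were searched, the Pu.1, ETS and composite motifs share the letters GGAA, and a match is no evidence of binding.

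Peaks at the edges of the rule were as follows. Of the 97 progenitor peaks up to 100 bp past the limit of 1000 bp from a start site, 42.3% were in the Daxx-KO CMP list, and of the 96 peaks up to 100 bp short of it that passed the rest of the rule, 56.3%. Only 103 progenitor peaks were covered over less than 50% of their length by GMP peaks, and 545 had an LT-HSC peak within 500 bp. Another 13 distal peaks were left out though LT-HSC peaks covered only their margin.

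Without Daxx, progenitor peaks were found less often in the CMP list than in the GMP list. The Daxx-KO CMP list held 5822 of 11301 (51.5%; 65.5% of all distal CMP peaks and 84.5% of shared peaks). The Daxx-KO GMP list held 8050 (71.2%; 61.2% of all distal CMP peaks and 80.0% of shared peaks). Both lists held 4917 (43.5%), the Daxx-KO GMP list alone 3133 (27.7%), the Daxx-KO CMP list alone 905 (8.01%) and neither list 2346 (20.8%; 22.7% of all distal CMP peaks). The distance from shared peaks was thus wide in CMPs and small in GMPs, and the share held by neither list was close to the background. Both Daxx-KO lists were shorter than their Daxx-WT counterparts, with 50590 against 66070 peaks in CMPs and 49677 against 65306 in GMPs. In bulk samples of sorted cells, fewer cells of a kind and less accessible chromatin per cell cannot be told apart.

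Width moved with presence. In 4 width classes set over all distal CMP peaks, the Daxx-KO CMP list held 32.1% of the narrowest progenitor peaks (200 to 433 bp), 51.4% at 434 to 569 bp, 64.1% at 570 to 751 bp and 68.1% of the widest. Shared peaks of the same classes were held at 70.4%, 80.1%, 87.7% and 91.4%, so that the difference in CMPs stood in every class. For the Daxx-KO GMP list the progenitor shares were 57.1%, 73.1%, 79.0% and 82.2%, and the shared ones 64.1%, 76.5%, 83.3% and 87.2%. The part of width and depth in these differences was not tested. Peaks that neither Daxx-KO list held were the narrowest (median 433 bp), with the most repeat sequence (21.1% of bases), against 595 bp and 18.3% where both lists held them. The C/EBP motif was found in 19.3% of progenitor peaks in the Daxx-KO GMP list and 12.4% of those not in it. The Pu.1 motif did not separate them, with 12.96% and 12.86%, nor did either motif separate peaks by the Daxx-KO CMP list (Pu.1 13.3% and 12.6%, C/EBP 16.7% and 18.01%).

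**Figure D1:**
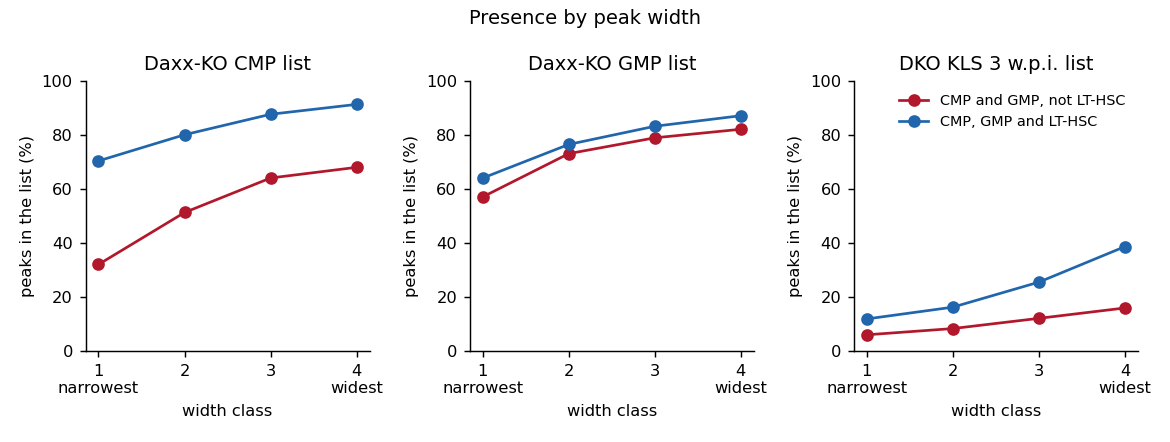
Share of distal Daxx-WT CMP peaks (percent, y axis) held by the Daxx-KO CMP, Daxx-KO GMP and DKO KLS lists in 4 classes of peak width (x axis, narrowest to widest), for progenitor peaks (red) and shared peaks (blue). In the narrowest class the Daxx-KO CMP list held 32.1% of progenitor peaks and 70.4% of shared peaks, while the 2 classes of peak lie close together for the Daxx-KO GMP list.

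Stem cells without Daxx held some progenitor peaks. The Daxx-KO LT-HSC list without a time label held 1848 (16.4%; 68.9% of all distal CMP peaks), where the Daxx-WT list held none by the rule. That list was also the longest, with 70455 peaks against 65455 in Daxx-WT LT-HSCs. When the 6 lists without a time label were cut to their 49677 widest peaks, the Daxx-KO LT-HSC list held 660 (5.84%). At 3 d.p.i., which the rule did not use, the Daxx-WT LT-HSC list held 180 progenitor peaks (1.59%; 39.2% of all distal CMP peaks) and the Daxx-KO list 654 (5.79%; 49.6%). In KLS cells at 3 w.p.i. the Daxx-WT list held 386 (3.42%; 35.2%) and the Daxx-KO list 1498 (13.3%; 50.6%). Both Daxx-KO lists were thus the ones with more progenitor peaks, and both were longer, with 44326 against 36949 peaks at 3 d.p.i. and 44694 against 33325 in KLS cells. This was not particular to progenitor peaks. CMP-alone peaks, which the Daxx-WT LT-HSC list also lacked, stood at 1.47% in Daxx-WT and 9.02% in Daxx-KO at 3 d.p.i. In KLS cells it was 1.09% and 9.24%, and the Daxx-KO LT-HSC list without a time label held 19.2% of them. With the 5 lists that carry a time label cut to their 22156 widest peaks, the progenitor shares were 0.345% and 0.876% at 3 d.p.i. In KLS cells they were 0.929% and 2.86%, still higher in both Daxx-KO lists. CMP-alone peaks had 0.244% and 1.18% at 3 d.p.i., and 0.289% and 1.78% in KLS cells.

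The progenitor peaks that Daxx-KO stem cells held were in part the same ones. Of the 654 in the 3 d.p.i. Daxx-KO list, 389 (59.5%) were also in the Daxx-KO LT-HSC list without a time label, which is 21.05% of its 1848. Of the 1498 in the Daxx-KO KLS list, 653 (43.6%) were in that LT-HSC list, 35.3% of its peaks. All 3 Daxx-KO stem lists held 172 (1.52%, and 38.4% of all distal CMP peaks). Of these, 88 (0.779%, and 3.74% of all distal CMP peaks) were in neither Daxx-WT list at 3 d.p.i. or in KLS cells. Most of all distal CMP peaks were in the Daxx-WT LT-HSC list, which the rule excludes, so that the lower shares are not read as a result. CMP-alone peaks, which that list also lacked, had 0.911% and 0.666%. The genes with most of these 88 peaks were Cttnbp2nl and Neb, which encodes the muscle protein nebulin, with 2 each. Most progenitor peaks (7647, 67.7%; 24.9% of all distal CMP peaks) were in none of the 6 lists of LT-HSCs and KLS cells outside the rule, and 1913 (16.9%; 9.98%) were in none of the 8 lists.

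Progenitor peaks that stem cell lists held, Daxx-KO and Daxx-WT alike, differed in motifs from the others. Progenitor peaks in the Daxx-KO LT-HSC list carried the C/EBP motif less often (11.7%) than those not in it (18.4%), and the CTCF motif more often (4.17% against 1.77%). At 3 d.p.i. the Daxx-KO list had 6.42% with the CTCF motif against 1.90% in the rest, and 11.5% with the C/EBP motif against 17.7%. In the Daxx-KO KLS list the RUNX motif stood at 7.28% against 3.93%. The composite motif with IRF was less common in all 3 than in the rest. It stood at 10.8% against 16.7% in LT-HSCs, 8.87% against 16.2% at 3 d.p.i. and 12.3% against 16.3% in KLS cells. The Daxx-WT lists moved likewise for the C/EBP motif, with 11.1% against 17.4% at 3 d.p.i. and 12.4% against 17.5% in KLS cells. Their composite shares were 11.7% against 15.8%, and 9.07% against 16.0%. The CTCF motif was at 6.11% against 2.1% in Daxx-WT cells at 3 d.p.i., and the RUNX motif at 6.48% against 4.30% in Daxx-WT KLS cells.

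**Figure D2:**
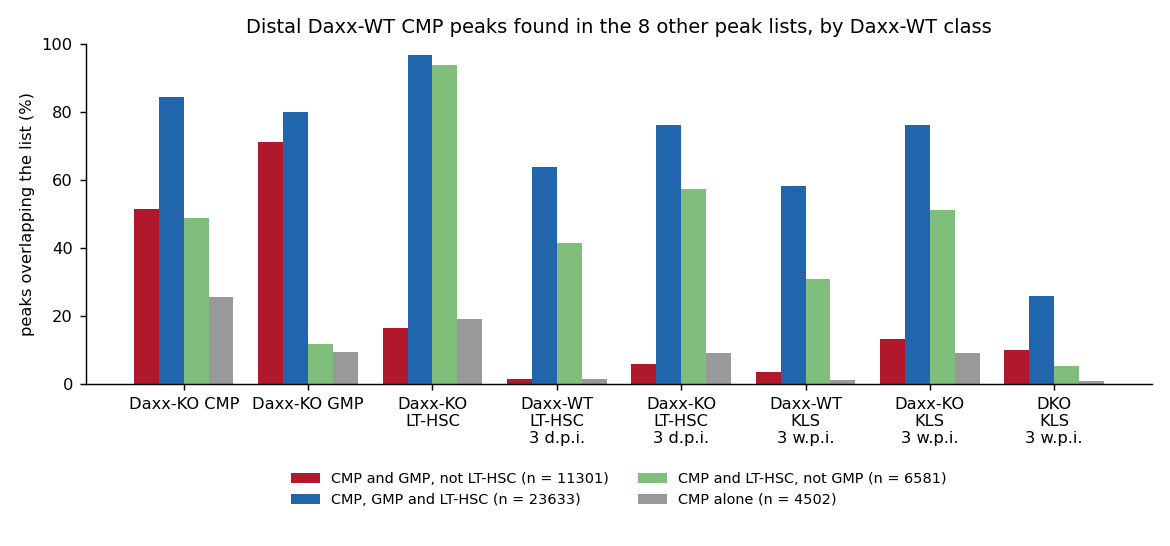
Share of distal Daxx-WT CMP peaks (percent, y axis) that overlapped each of the 8 peak lists outside the rule (x axis), for progenitor peaks (red), shared peaks (blue), CMP and LT-HSC peaks (green) and CMP-alone peaks (grey). Progenitor peaks reached 51.5% and 71.2% in the Daxx-KO progenitor lists and stayed at or under 16.4% in the 6 lists of LT-HSCs and KLS cells.

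DKO KLS cells, which lacked Pu.1 as well as Daxx, held 1123 progenitor peaks (9.94%; 16.5% of all distal CMP peaks), although theirs was the shortest of all lists. Shared peaks were in that list at 25.8%, against 58.1% in Daxx-WT and 76.1% in Daxx-KO KLS cells. Progenitor peaks made up 11.3% of the distal peaks of the DKO list, 5.38% of the Daxx-KO KLS list and 2.10% of the Daxx-WT KLS list. With the lists cut to equal length, the DKO list held 9.94% of the progenitor peaks, the Daxx-KO list 2.86% and the Daxx-WT list 0.929%. Of the 1123, 1000 were not in the Daxx-WT KLS list (8.85% of progenitor peaks; 4.33% of all distal CMP peaks) and 821 were in neither of the other KLS lists (7.26%; 2.41%). The DKO and Daxx-KO KLS lists shared 262, which is 23.3% of the DKO peaks and 17.5% of the Daxx-KO peaks. Progenitor peaks of the DKO list were nearly all found in Daxx-KO GMPs (1049, 93.4%) and less often in Daxx-KO CMPs (764, 68.0%). For shared peaks of the DKO list these shares were 93.8% and 95.15%, so that the GMP share was alike in both classes.

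These DKO peaks carried a different mix of motifs. A C/EBP match was found in 28.2% of progenitor peaks in the DKO list and 16.1% of those not in it. The Pu.1 motif went the other way, with 7.12% against 13.6%, as did the composite with IRF, with 7.66% against 16.6%. The RUNX motif was at 6.68% against 4.12%. In the 861 that the DKO list held and the Daxx-KO KLS list did not, C/EBP matches reached 31.0% and Pu.1 matches 6.27%, and in the 1236 with the reverse pattern they stood at 13.8% and 13.03%. Repeats covered 14.8% of the bases of the DKO peaks and 19.4% of the rest.

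**Figure D3:**
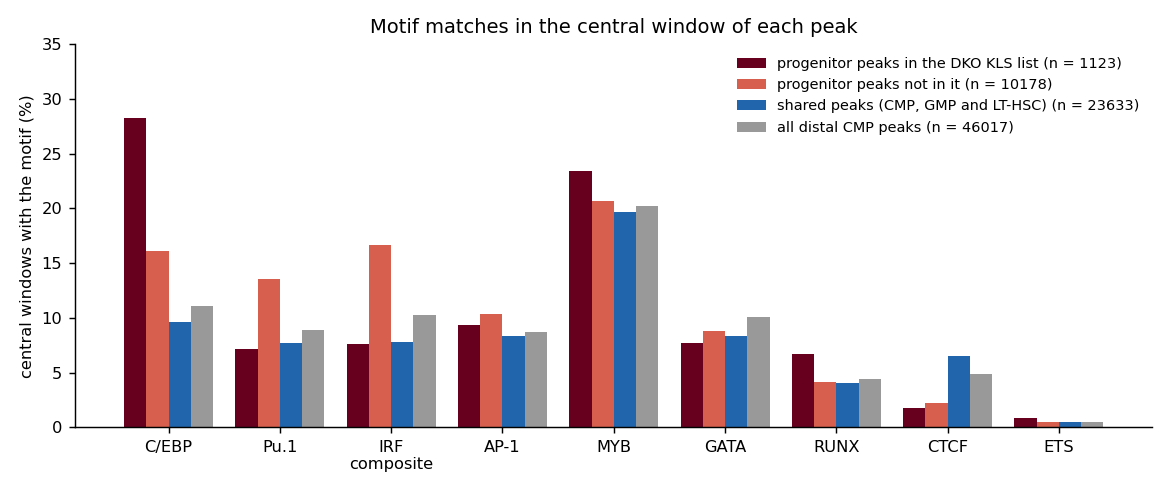
Share of central 200-base windows (percent, y axis) with a match to each of 9 motifs (x axis), for progenitor peaks in the DKO KLS list (dark red), progenitor peaks not in it (light red), shared peaks (blue) and all distal Daxx-WT CMP peaks (grey). Progenitor peaks in the DKO list had 28.2% with the C/EBP motif and 7.12% with the Pu.1 motif, and those not in it 16.1% and 13.6%.

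Markers of mature neutrophils moved with the DKO list. Of 5 such genes (Camp, Ltf, Ngp, Lcn2 and S100a8), 4 had a promoter peak in the DKO KLS list and 1, Ltf, did not, whereas the Daxx-WT and Daxx-KO KLS lists each had a promoter peak at 1, Ltf. Of the 8 CMP and GMP markers, 5 had a promoter peak in the DKO list, 5 in the Daxx-KO and 4 in the Daxx-WT KLS list. The DKO list lacked one at Mpo, which both other KLS lists had, and had one at Ctsg, which both lacked, and at Cebpe, which the Daxx-WT KLS list lacked. The Daxx-WT GMP list had promoter peaks at all 5 neutrophil genes. Of 5 erythroid genes 1 had a promoter peak in the DKO list and 3 in each of the other KLS lists. The part of more differentiated cells in the DKO results was not tested.

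Peak height was compared with that of all distal peaks of the same list. The authors' fold enrichment at progenitor peaks had a median of 3.96 in the Daxx-WT and 4.07 in the Daxx-KO list at 3 d.p.i., where the distal peaks of these lists had medians of 5.48 and 5.69. In KLS cells it was 4.45 in Daxx-WT (5.20 over its distal peaks), 5.14 in Daxx-KO (5.86) and 4.34 in DKO (4.199). Progenitor peaks were therefore among the lower peaks of stem cells, except in DKO cells. In the DKO list 56.7% of them stood above the list's median for distal peaks, against 31.1% in Daxx-KO KLS, 18.5% in Daxx-WT KLS, 13.1% in Daxx-KO and 6.11% in Daxx-WT cells at 3 d.p.i.

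The tables of differential sites give values per library and did not enter the rule. They list only windows the authors selected as different on these same libraries, so that non-overlap between groups was near complete in each table (99.5% of sites at 3 d.p.i., 99.6% for Daxx-KO KLS and 100% for DKO KLS) and is not read as a result. Tests were run again with limma on log2 of the scaled reads plus 1, with Benjamini-Hochberg adjustment over all windows tested, and cannot be independent of that selection. The Daxx-KO and DKO KLS tables share their 2 Daxx-WT libraries. The share of sites with the higher mean is given beside that of the whole table and, by peaks, beside that of other distal CMP peaks. At 3 d.p.i., 338 of 11927 sites overlapped a progenitor peak, and 225 of these had the higher mean in Daxx-KO (66.6%; 29.1% of all sites of the table). For Daxx-KO KLS cells it was 590 of 17311 sites, with 333 higher (56.4%; 19.1% of the table). For DKO KLS cells it was 2100 of 50928 sites, with 1663 higher (79.2%; 72.1% of the table). Of the progenitor peaks with a site at 3 d.p.i., 67.2% had a higher one, against 71.6% over all distal CMP peaks, 64.5% of shared, 80.1% of CMP and LT-HSC and 89.7% of CMP-alone peaks, so that progenitor peaks were not set apart there. For Daxx-KO KLS cells it was 56.8% against 59.15% over all distal CMP peaks, and for DKO cells 79.05% against 28.4%, with 70.25% of CMP-alone peaks. No site of the LT-HSC or Daxx-KO KLS table passed an adjusted p of 0.05 in limma (0 of 11927 and 0 of 17311, so 0% were called). An unadjusted p under 0.05 in limma was found at 334 of 338 and 559 of 590 progenitor sites. Nearly all sites of the tables had one too: 3084 higher and 8370 lower of 11927, and 2898 higher and 13851 lower of 17311. These counts are therefore not read as a result. With a pseudocount of 5 in place of 1, 54 progenitor sites of the Daxx-KO KLS table were called higher and 41 lower. Over the whole table it was 539 higher and 3824 lower of 17311. In the DKO KLS table, with a pseudocount of 1, 1411 progenitor sites were called higher and 340 lower (67.3% and 14.9% of all its sites).

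The DKO calls rested on both DKO libraries and on the scaling. Without DKO replicate 1 or without DKO replicate 2 there were 0 calls (the lone library was assumed to vary like the others), without Daxx-WT replicate 1 there were 566 higher and 235 lower, and without Daxx-WT replicate 2 1291 and 186. In each of these fits 1663 or 1664 sites had the higher mean in DKO, which leaving out a library could hardly change. The libraries of the 2 groups did not overlap at 2099 of the 2100 progenitor sites, which the authors had selected on these libraries. Scaling to the mean reads per window, in place of the authors' constants, moved log2 differences by -0.67 in the DKO table, 0.47 in the Daxx-KO KLS table and 0.33 at 3 d.p.i. With it, 32 progenitor sites of the DKO table were called higher and 436 lower (3310 and 13843 of all 50928 sites). Of the 1751 calls 372 remained, and 1659 of 2100 sites had the higher mean in DKO. The spread estimated by limma in the DKO table was the same for every site, with a standard error of 0.36 on the log2 scale.

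Against other distal CMP peaks, the direction in DKO cells differed. A site with the higher mean in DKO lay at 1649 progenitor peaks (14.6%) and one with the lower mean at 439 (3.88%). Shared peaks had 4.34% and 24.4%, CMP-alone peaks 5.51% and 2.33%, and all distal CMP peaks 6.59% and 16.7%. Scaled reads at progenitor sites averaged 91.1 and 82.2 per DKO library, against 39.8 and 50.4 per Daxx-WT library. The motif divided the peaks here too, although these sites and the DKO list come from the same 2 DKO libraries. Progenitor peaks with a C/EBP but no Pu.1 match had a higher site in 24.2% and a lower one in 2.43%, and those with a Pu.1 but no C/EBP match in 8.30% and 4.54%. Of shared peaks with a Pu.1 but no C/EBP match, 3.402% had a higher and 39.4% a lower site.

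In the Daxx-KO KLS table the shares were smaller and the motif order differed. A higher site lay at 2.99% of progenitor peaks and a lower one at 2.27% (3.41% and 2.35% of shared peaks, 3.31% and 2.295% of all distal CMP peaks). With a C/EBP but no Pu.1 match the shares were 1.80% and 3.38%, and with a Pu.1 but no C/EBP match 3.13% and 2.11%. Presence in the Daxx-KO CMP list, from other libraries, moved with direction. Progenitor peaks in that list had a higher site in 5.02% and a lower one in 1.84%, and those not in it 0.840% and 2.74%. At 3 d.p.i. the same split gave 3.11% and 0.910% against 0.840% and 1.06%, with 2.01% and 0.982% over all progenitor peaks, 3.69% and 1.47% over all distal CMP peaks and 3.296% and 1.82% over shared peaks.

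**Figure D4:**
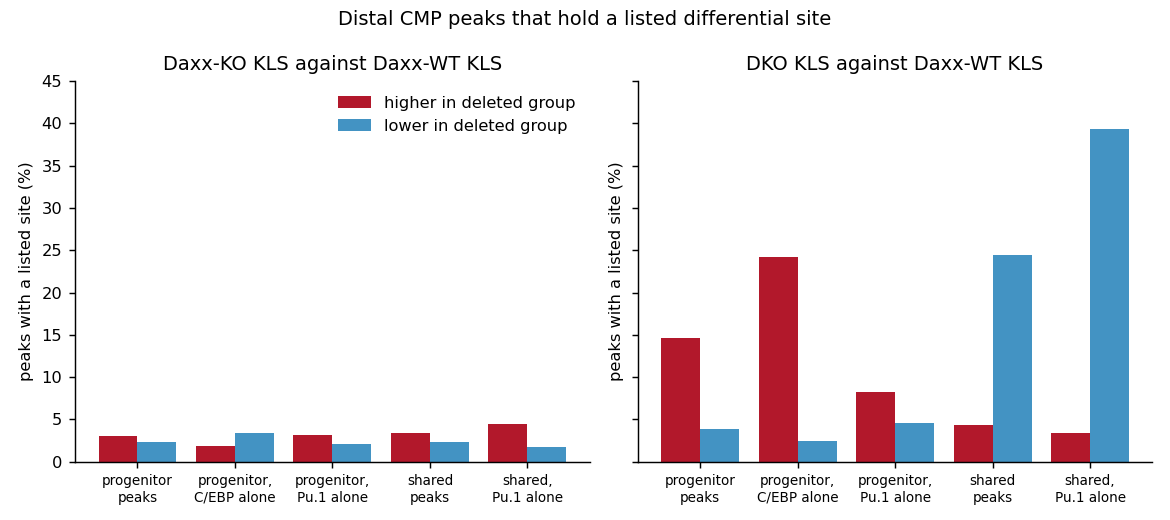
Share of peaks (percent, y axis) with a listed site of higher (red) or lower (blue) mean in Daxx-KO (left) or DKO (right) than in Daxx-WT KLS cells, for progenitor peaks, progenitor peaks with a C/EBP but no Pu.1 match or the reverse, shared peaks, and shared peaks with a Pu.1 but no C/EBP match. In DKO cells 24.2% of C/EBP progenitor peaks had a higher site and 39.4% of Pu.1 shared peaks a lower one; in Daxx-KO cells the highest bar is 4.50%. Both panels use the same Daxx-WT libraries.

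The 3 sites with the largest ratios in each direction follow for each table. At 3 d.p.i. the largest was at a peak 215820 bp from Frk, a Src-related kinase (chr10:34699051-34700300), with 151.4, 123.1 and 71.8 scaled reads in Daxx-KO against 42.8 and 22.5 in Daxx-WT libraries (log2 difference 1.79 ± 0.39 SE, adjusted p = 0.301 in limma). The site near Frrs1, a ferric-chelate reductase gene, had 36.7, 43.0 and 37.0 against 12.4 and 10.3, and the one near Nol4l 135.8, 129.8 and 137.2 against 53.0 and 30.0. The groups did not overlap at any of the 3, as at 99.5% of all sites of this table, and the Frk peak was in the Daxx-KO CMP, GMP, LT-HSC and KLS lists and that of 3 d.p.i. Lower in Daxx-KO were sites in introns of Mbp, the gene of myelin basic protein (18.4, 6.68 and 11.6 against 40.6 and 44.1), of Ctif, a cap-binding complex factor (10.1, 10.5 and 10.6 against 39.4 and 26.3), and of Kcnj15, an inward rectifier potassium channel (12.9, 5.73 and 15.8 against 44.0 and 26.3). Adjusted p-values of these 6 in limma were 0.301 to 0.335.

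In Daxx-KO KLS cells the largest ratio was near Snapc3, a subunit of the complex that activates small nuclear RNA genes (chr4:83407101-83408650), with 154.8, 159.2 and 149.6 scaled reads against 26.4 and 28.7 (log2 difference 2.45 ± 0.28 SE, adjusted p = 0.284 in limma). The same Frk peak as at 3 d.p.i. was second, with 105.8, 174.1 and 173.1 against 31.0 and 26.4 (2.32 ± 0.33 SE). Galnt2, which starts mucin-type O-glycosylation, had 94.6, 65.6 and 63.0 against 14.6 and 13.8. All 3 peaks were in the Daxx-KO CMP, GMP and LT-HSC lists. Sites lower in Daxx-KO lay near Arid5b, an AT-rich DNA-binding factor (6.68, 6.12 and 1.88 against 26.4 and 26.4), Gpr31b, a G-protein-coupled receptor (8.91, 7.0 and 5.64 against 30.1 and 35.5), and Tcp10c (18.9, 11.4 and 1.88 against 35.6 and 52.7). None of these 3 peaks was in any of the 8 lists outside the rule. Adjusted p-values in limma were 0.284 to 0.345.

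Between the LT-HSC and Daxx-KO KLS tables, which share no library, 33 pairs of sites at progenitor peaks overlapped. Of these, 23 were higher in Daxx-KO in both, 5 were lower in both and 5 went opposite ways. The same count was not made over all overlapping sites of these tables, which hold only sites the authors selected. The agreement is therefore not read as a result. Snapc3 was one of the 23, with 75.2, 74.4 and 54.9 against 42.8 and 30.0 scaled reads at 3 d.p.i. So was Sema3a, which encodes a secreted semaphorin, with 103.7, 106.9 and 90.8 against 28.2 and 43.1 in LT-HSCs and 110.2, 163.6 and 99.7 against 23.7 and 27.5 in KLS cells. Cd69, an early activation marker of lymphocytes, was one of the 5 lower in both, with 69.7, 55.4 and 74.95 against 108.2 and 113.5 in LT-HSCs and 91.3, 99.7 and 83.7 against 206.2 and 181.1 in KLS cells. These 3 examples were chosen after their values were seen, and neither table called them.

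In DKO KLS cells the 6 sites with the largest ratios all passed the test. The site near Adtrp, a lipid hydrolase gene (chr13:41757801-41759300), had 94.4 and 89.9 scaled reads in DKO against 14.2 and 13.2 in Daxx-WT libraries (log2 difference 2.67 ± 0.36 SE, adjusted p = 2.27e-10 in limma). The site near Thy1, which encodes the surface glycoprotein CD90, had 149.5 and 157.4 against 21.3 and 30.7 (2.54), and that of Arap2, a GTPase-activating protein, 74.2 and 89.9 against 4.44 and 23.0 (2.85). Lower in DKO were sites at Ear1, an eosinophil-associated ribonuclease gene (10.6 and 8.43 against 47.0 and 49.4, log2 difference -2.23), at the predicted gene Gm8890 (8.48 and 19.7 against 71.9 and 54.8, -2.19), and far from Trps1, a GATA-type repressor (8.48 and 11.2 against 34.6 and 50.5, -1.99). Adjusted p-values in limma were 4.57e-06 or lower for all 6, and none passed the threshold without DKO replicate 1 or without DKO replicate 2. The 3 lower peaks were all in the Daxx-KO CMP and Daxx-KO KLS lists and not in the DKO list. Ear1 belongs to a family of near-identical genes, and its reads may be shared with relatives.

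Progenitor peaks were grouped by nearest protein-coding gene, which does not show which gene an element acts on. They were 35.3% of the distal CMP peaks of 12 primary granule genes (12 of 34), 34.6% for 23 granulocyte and monocyte fate factors (118 of 341), 33.3% for 20 myeloid cytokine receptors (36 of 108), 51.3% for 20 late neutrophil genes (20 of 39) and 44.3% for the 19 annotated of 20 monocyte, macrophage and dendritic genes (43 of 97). The share over all distal CMP peaks was 24.6%. It was 18.1% for 24 erythroid and megakaryocyte genes (13 of 72), 16.5% for 23 stem cell genes (22 of 133), 22.9% for 24 lymphoid genes (33 of 144) and 21.7% for the 17 annotated of 18 interferon-stimulated genes (5 of 23). The lymphoid and interferon-stimulated lists lay near the overall share, and no list was tested against it. The counts below stand beside those over all progenitor peaks, of which 51.5% were in the Daxx-KO CMP, 71.2% in the Daxx-KO GMP, 13.3% in the Daxx-KO KLS and 9.94% in the DKO list, and beside the 67.3% of all DKO sites called higher and the 14.9% called lower. Gfi1b was in both the erythroid and the stem cell list.

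Primary granule genes encode the proteases and peroxidase that promyelocytes store. Their 12 progenitor peaks, at 8 genes, were in the Daxx-KO CMP list in 7 cases, in the Daxx-KO GMP list in 10 and in the DKO KLS list in 4, and 1 each was in the Daxx-WT and Daxx-KO KLS lists. The 4 that had a DKO site, at Ctsg, Srgn, Cst7 and Plac8, were all called higher, as were 67.3% of all DKO sites. At Ctsg, the cathepsin G gene, the site at chr14:56105701-56106300 had 101.8 and 49.6 scaled reads in DKO against 18.6 and 34.0 in Daxx-WT libraries (log2 difference 1.46, adjusted p = 0.00112 in limma). The Srgn site beside the sequence shown had 56.2 and 59.0 against 17.8 and 26.3 (1.37), and Cst7, the cystatin F gene, 84.8 and 66.5 against 28.4 and 40.6 (1.12). Libraries of the 2 groups did not overlap at these sites, as at 50909 of all 50928 DKO sites. At 3 d.p.i. a site near Mpo, the myeloperoxidase gene, had 120.2, 108.8 and 108.7 in Daxx-KO against 57.5 and 39.4 in Daxx-WT libraries, and one near Plac8 28.4, 57.3 and 58.1 against 18.03 and 18.8, with adjusted p of 0.301 and 0.347 in limma. The Daxx-KO KLS table listed no site at these 12 peaks.

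Fate factors held 118 progenitor peaks at 19 of 23 genes, of which 60 were in the Daxx-KO CMP list, 92 in the Daxx-KO GMP list and 15 each (12.7%) in the Daxx-KO and DKO KLS lists, near the shares over all progenitor peaks. Their 19 DKO sites, at 11 genes, were higher in 18 cases, and 14 of these and the 1 lower site were called (67.3% and 14.9% of all DKO sites). Runx1 had 18 progenitor peaks, 10 in Daxx-KO CMPs and 12 in Daxx-KO GMPs, and its DKO site at chr16:92640501-92642000 had 133.6 and 125.5 scaled reads against 43.5 and 35.1 (log2 difference 1.70). Id2 had 15, all of them in the Daxx-KO GMP list, 7 in the Daxx-KO KLS list and 5 in the DKO list. One Id2 peak was listed in both KLS tables, with 72.4, 144.3 and 78.1 in Daxx-KO against 34.7 and 42.4, and 110.3 and 78.7 in DKO against 32.8 and 42.8. The lower site was at Cebpd, a C/EBP family gene, with 18.03 and 19.7 in DKO against 52.4 and 40.6 in Daxx-WT libraries (-1.25). Jun had 185.6 and 137.7 against 47.9 and 82.3. In the Daxx-KO KLS table Maf, a factor of macrophage identity, had 2 lower sites (11.1, 12.2 and 10.4 against 24.6 and 34.4, and 11.1, 14.0 and 4.70 against 20.1 and 39.0) and Klf4, a factor of monocytes, 1 (8.91, 7.0 and 1.88 against 20.98 and 20.6), none of them called. The Klf4 site (chr4:55811001-55811600) reached only the edge of its peak (chr4:55811536-55812035). That peak was in the Daxx-KO KLS list and not in the Daxx-WT KLS list, so that peak and site do not point the same way.

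Myeloid cytokine receptors held 36 progenitor peaks at 14 of 20 genes, with 22 in Daxx-KO CMPs, 31 in Daxx-KO GMPs and 8 in the DKO KLS list. Of 10 DKO sites 9 were higher (7 called) and 1 lower (called), near the shares over all DKO sites. Csf3r, the receptor of the granulocyte growth factor G-CSF, had 166.5 and 147.1 scaled reads in DKO against 47.9 and 68.0 in Daxx-WT libraries at chr4:126016501-126018600 (log2 difference 1.44, adjusted p = 0.00136 in limma). A Cxcr2 site at a peak 13003 bp from the start, not the one shown above, had 129.4 and 115.2 against 44.4 and 37.3 (1.56). The same peak was lower in Daxx-KO KLS cells, with 10.02, 10.5 and 11.3 against 31.9 and 22.9 (-1.28, adjusted p = 0.284 in limma). Il6ra was the receptor with the lower site in DKO cells: the peak shown above, with a Pu.1 match, had 125.1 and 99.3 against 229.0 and 304.9 (-1.24). At Cxcr4, the receptor that holds progenitors in the marrow, a peak was lower in Daxx-KO (39.0, 34.1 and 19.8 against 44.7 and 76.8, not called) and higher in DKO KLS cells (273.6 and 179.9 against 54.1 and 95.4, called).

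Late neutrophil genes, which encode secondary granule proteins and effectors, held 20 progenitor peaks at 14 of 20 genes, with 10 in Daxx-KO CMPs, 17 in Daxx-KO GMPs and 5 in the DKO list. Neither list at 3 d.p.i. nor the Daxx-WT KLS list held any of the 20, where these lists held 1.59%, 5.79% and 3.42% of all progenitor peaks. Of 5 DKO sites 4 were higher (3 called) and 1 lower (called). Hp, the haptoglobin gene, had 91.2 and 86.2 against 14.2 and 40.6 (log2 difference 1.83), and Lyz2, the lysozyme gene, 28.6 and 37.5 against 13.3 and 9.87 (1.44). Itgam, which encodes the integrin CD11b, had sites in both directions at 2 peaks: 65.8 and 72.1 against 31.9 and 42.8 (adjusted p = 0.137 in limma), and 26.5 and 34.7 against 71.0 and 85.5 (-1.33, adjusted p = 0.00351 in limma). The peak with the lower site has a Pu.1 match and was in the Daxx-KO CMP and LT-HSC lists, and the other was in the DKO list. Ltf, the lactoferrin gene, had 2 peaks with a Pu.1 match, of which the Daxx-KO GMP list held both and the DKO list neither.

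Monocyte, macrophage and dendritic genes held 43 progenitor peaks at 15 genes, with 25 in Daxx-KO CMPs, 30 in Daxx-KO GMPs and 4 in the DKO list. Their 7 DKO sites were 5 higher (all called) and 2 lower (1 called). Lgals3, the galectin-3 gene, had 152.7 and 154.6 against 39.0 and 72.4 (log2 difference 1.51). Ly86, which encodes the MD-1 partner of a Toll-like receptor relative, had 8 peaks and sites in both directions: 110.3 and 79.6 against 24.0 and 46.1 (1.47), and 54.1 and 58.1 against 148.2 and 170.0 (-1.49). The lower of these peaks was in the Daxx-WT and Daxx-KO KLS lists, and the higher one in the DKO list alone of the KLS lists. Tlr2, a Toll-like receptor gene, had 4 peaks, all of them in both the Daxx-KO CMP and Daxx-KO GMP lists.

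Erythroid and megakaryocyte genes held 13 progenitor peaks at 6 of 24 genes, of which 5 were in Daxx-KO CMPs, 7 in Daxx-KO GMPs and 0 in the DKO list. Both DKO sites were lower and called, one of them at Pf4, the platelet factor 4 gene (20.2 and 30.0 against 61.2 and 52.6, log2 difference -1.17). The Pf4 peak holds Pu.1, RUNX, GATA and CTCF matches and was in none of the 8 lists. Stem cell genes held 22 at 10 of 23 genes, with 14 in Daxx-KO CMPs, 17 in Daxx-KO GMPs and 5 in the DKO list. Of 8 DKO sites 5 were higher (3 called) and 3 lower (3 called). Kit, the stem cell factor receptor gene, had sites in both directions, with 120.9 and 90.9 against 15.1 and 46.1 at one peak (1.94) and 15.9 and 19.7 against 35.5 and 42.8 at another (-1.10). Mecom, a stem cell factor gene, had 18.03 and 26.2 against 50.6 and 51.5 (-1.19).

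Lymphoid genes held 33 progenitor peaks at 14 of 24 genes, with 18 in Daxx-KO CMPs, 23 in Daxx-KO GMPs, 8 in the Daxx-KO KLS list and 5 in the DKO list. Of 6 DKO sites 5 were higher (4 called) and 1, at Foxo1, a forkhead factor of B-cell development, was lower and called (12.7 and 17.8 against 32.8 and 53.7, log2 difference -1.42). In the Daxx-KO KLS table a site at the other end of the same Foxo1 peak had the higher mean in Daxx-KO (Daxx-KO libraries 32.3, 38.5 and 41.4, Daxx-WT libraries 16.4 and 17.2, not called). The DKO site (chr3:52567201-52567950) and the Daxx-KO site (chr3:52567901-52568550) barely overlap, so that they do not measure the same stretch. Lef1, a factor of the Wnt pathway, was higher in both tables, with 27.8, 88.4 and 53.6 against 21.9 and 28.7 in Daxx-KO (adjusted p = 1 in limma) and 125.1 and 117.1 against 40.8 and 54.8 in DKO. Interferon-stimulated genes held 5 at 3 of 17 genes, all 5 in Daxx-KO GMPs, 1 in Daxx-KO CMPs and 1 in the DKO list.

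**Figure D5:**
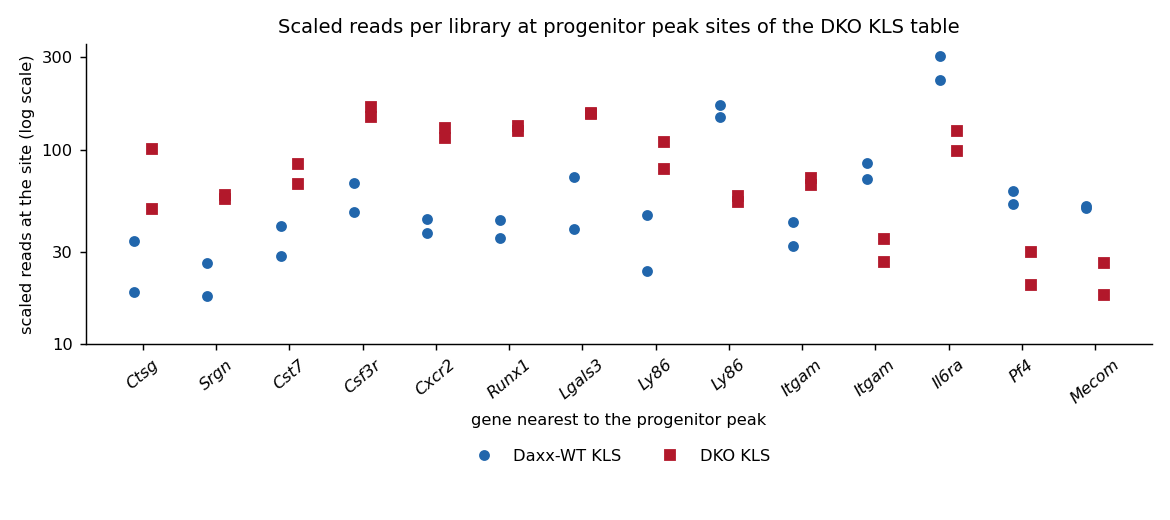
Scaled reads per library (y axis, log scale) at sites of the DKO KLS table that overlap a progenitor peak near 12 genes of the lists, chosen after their values were seen (x axis, 1 column per site), with 2 Daxx-WT KLS libraries (blue circles) and 2 DKO KLS libraries (red squares). DKO libraries lie above Daxx-WT ones at Ctsg, Srgn, Cst7, Csf3r, Cxcr2, Runx1 and Lgals3 and below them at Il6ra, Pf4 and Mecom, and Ly86 and Itgam each have a site in either direction.

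Progenitor peaks were spread over many genes. They lay nearest to 5809 of the 12286 genes with a distal CMP peak; 3342 genes had exactly 1, 407 had at least 5 and 37 had at least 10. The most lay at Pde4d, a cAMP phosphodiesterase gene, and Runx1, with 18 each, followed by Id2, Jarid2, a partner of Polycomb repressive complex 2, and Lpp, a LIM-domain adhesion protein gene, with 15 each. Lmo4, a LIM-only cofactor gene, had 14, and Adgrl2, an adhesion receptor gene, Bcl2l11, which encodes the apoptosis inducer Bim, Etv6, an ETS repressor, and Foxn3, a forkhead factor, had 13 each. Long genes with many peaks of every class stand high in such a ranking: progenitor peaks were 26.1% of the distal CMP peaks of Pde4d and 24.5% of those of Adgrl2, but 18 of the 36 of Runx1 and 14 of the 28 of Lmo4.

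Counts at these genes are small and were not tested against the shares over all progenitor peaks (51.5% in the Daxx-KO CMP list, 71.2% in the Daxx-KO GMP list and 20.8% in neither). Of the Pde4d peaks 9 were in the Daxx-KO CMP and 14 in the Daxx-KO GMP list, and 1 was in neither. Lpp had 8 and 13 of 15, and Bcl2l11 7 and 11 of 13, with 1 in neither at each. At Jarid2 and Lmo4, 6 of 15 and 6 of 14 were in neither list, the most of these genes, and at Foxn3 and Runx1 it was 5 each. Bcl2l11 had the most DKO sites of these genes, with 7: 6 were higher and called, among them one with 248.1 and 182.7 scaled reads against 51.5 and 72.4 (log2 difference 1.79), and 1 was lower, with 59.4 and 68.4 against 176.6 and 156.8 (-1.37). Of its 13 progenitor peaks the DKO list held 3, none of which was in another KLS list. Pde4d had 2 higher and 2 lower DKO sites, all called, the highest with 85.9 and 68.4 against 18.6 and 19.7 (1.94). Lmo4 had 4 DKO sites, all higher and called, and 2 of them lay at peaks that were in none of the 8 lists. No Adgrl2 peak was in the DKO list, and 8 of 13 were in each of the Daxx-KO CMP and Daxx-KO GMP lists.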

How the data were processed

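ATAC-seq reads were handled by the authors with CASAVA 1.8.4, cutadapt 1.13, STAR 2.5.3 and bedtools on mm10, per the labels and the submitters' processing notes; the peak caller is not given in the sources used here. The authors deposited 1 peak list per group, with a fold enrichment for each peak in the 5 lists with a time label and positions alone in the other 6. The deposited tables of differential sites were made by the authors with diffReps 1.55.6 (windows of 600 bp, steps of 50 bp, fragments of 100 bp, negative binomial test, p cutoff 0.0001) and hold reads per library divided by a constant. Their columns of group means, fold changes and p-values hold the authors' own comparisons and were not used.

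Distances were measured to GENCODE M21 start sites (the study used M14), sequence was read from GRCm38.p6 with pysam 0.24.0, 0 peaks ran past a chromosome end, and coordinates are 1-based. Sites were tested with limma 3.58.1 on log2(value + 1), over all windows of a table, with a Benjamini-Hochberg threshold of 0.05. The values are not counts, so that no count test was run. Scripts (R 4.3.3, SciPy 1.17.1, pandas 2.3.3, numpy 2.4.6, Python 3.11.15) were tested on simulated data. Groups followed the labels, and the study describes its genomic replicates as biological. Named genes were the 10 with the most progenitor peaks (ties by name, which left out Inhba with 13), up to 4 genes per list with the most, and the 3 sites with the largest ratios each way in each table. A few items are not reported here. Further sites at genes of the lists were chosen after their values were seen. The regions and gene lists were chosen with earlier results of these data known. Alternatives were lists of equal length, other distances and overlaps, a pseudocount of 5, scaling to the mean reads per window, a minimum mean of 10, each library left out and the replicate block.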

Additional observations from a re-analysis of the deposited data

Results flagged for a closer look

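At 5 overlapping pairs of sites the Daxx-KO libraries moved in opposite ways at 3 d.p.i. (LT-HSCs) and at 3 w.p.i. (KLS cells), with no overlap between Daxx-KO and Daxx-WT libraries in either table (as at 99.5% and 99.6% of all their sites). The difference between the tables was not tested, and each site had been selected by the authors on these libraries. The 2 sites of a pair do not cover the same stretch. At Rap1gap2 they were chr11:74576951-74577850 in LT-HSCs and chr11:74576601-74577300 in KLS cells. The Rap1gap2 pair had 81.7, 86.9 and 95.0 scaled reads in Daxx-KO against 54.1 and 50.6 in Daxx-WT LT-HSCs, and 36.7, 49.0 and 39.5 against 66.6 and 73.4 in KLS cells (log2 ratio in KLS cells minus that in LT-HSCs -1.47). The Cog6 pair had 111.0, 158.4 and 104.5 against 78.9 and 72.2, and 15.6, 8.75 and 12.2 against 28.3 and 27.5 (-1.85). The Epb41 pair had 513.9, 464.8 and 385.3 against 331.3 and 313.2, and 73.5, 50.7 and 57.4 against 96.7 and 95.1 (-1.15). These 3 were higher in LT-HSCs and lower in KLS cells without Daxx. The Hivep3 pair went the other way, with 13.8, 7.64 and 11.6 against 27.0 and 25.3, and 32.3, 65.6 and 21.6 against 14.6 and 10.3 (2.78), as did the Tomm20 pair, with 68.8, 67.8 and 48.6 against 75.5 and 128.5, and 114.7, 126.8 and 106.3 against 69.3 and 68.8 (1.46).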

How the results depend on the processing

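With lists cut to equal length by width, the share of progenitor peaks was 50.3% in Daxx-KO CMPs, 5.84% in Daxx-KO LT-HSCs, 0.345% and 0.876% in Daxx-WT and Daxx-KO LT-HSCs at 3 d.p.i., and 0.929% and 2.86% in Daxx-WT and Daxx-KO KLS cells; the Daxx-KO GMP (71.2%) and DKO (9.94%) lists were the shortest of their kind and did not change. A distance of 5000 bp (8264 peaks), an LT-HSC gap of 500 bp (10756) and a 50% overlap (11350) left the shares of the lists within the limits set for no change. In the Daxx-KO KLS table, a pseudocount of 5 called 95 progenitor sites (54 higher, 41 lower) and the replicate block 26 (18 and 8), against 0. Over all 17311 sites these settings called 539 higher and 3824 lower, and 223 higher and 2073 lower. The cause was not tested. Scaling to the mean reads per window gave 468 calls in the DKO table (32 higher and 436 lower, with 372 of the 1751 calls kept), where leaving out a library gave 0 to 1477 calls, and 0 to 0 in the other tables. The deviations of same-numbered samples were hardly correlated (0.00844 and 0.0517 in the Daxx-KO KLS table, -0.00308 in the DKO table). With 2 Daxx-WT libraries the deviation of one mirrors that of the other, and the sites were preselected. These correlations therefore cannot decide whether same-numbered samples shared a batch. The block gave 1792 calls in the DKO table (1438 and 354), beside 34559 higher and 8046 lower over all 50928 sites. No paired analysis was possible for the LT-HSC table because its columns carry animal numbers and not the replicate numbers of the labels. The sites named by the largest ratios kept their direction in every setting run; among single progenitor sites, 2096 of 2100 in the DKO table kept theirs under the scaling, and 2099 of 2100 there and 589 of 590 in the Daxx-KO KLS table without Daxx-WT replicate 2. Libraries had 4.21 to 16.0 reads per window, the most in DKO cells (9.98 and 16.0), whose list was the shortest; the part of depth in the length of the lists was not tested.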

Other observations

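Progenitor peaks found in the DKO KLS list and in neither other KLS list numbered 3 each at several genes outside the lists above, chosen here for that count. These were Chd7, a chromatin remodeller gene (3 of its 4 progenitor peaks), Syk, a tyrosine kinase of immune receptor signalling (3 of 4), Spp1, the osteopontin gene (3 of 4), Thbs1, the thrombospondin-1 gene (3 of 7), and Ppp3ca, a calcineurin subunit gene (3 of 6).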
